A study of Arabidopsis thaliana with 22 samples.

Results

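Wild-type Arabidopsis thaliana seedlings (Col-0, 10 days old by the labels) were compared at 3 h and at 0 h, with 3 RNA-seq libraries at each time. These 6 libraries are those the labels assign to the wild type at 3 h and at 0 h, out of 22 libraries in the series, and all genes in the seedling count table were considered. The series asks how a pair of trihelix transcription factors, AITF1 and ASR3, shape plant defence, and it also holds the wild type at 1 h, a double mutant (aitf1-1asr3-1) sampled at 0, 1 and 3 h with 3 libraries each, and leaves of other plants. The labels do not say what was applied at 0 h. Untreated seedlings kept for 1 or 3 h were not analysed here, so an effect of a treatment and an effect of the hours passed cannot be told apart. The labels give the wild-type seedlings no transgene or added agent. The growth text speaks of 14-day-old seedlings on sucrose plates and the extraction text of leaves, which differs from the labels' 10-day-old whole seedlings. Replicates are not said to come from separate cultures, and p-values therefore reflect variation among libraries that could be technical.

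Plant cells carry surface receptors that bind fragments of microbes or peptides released by damaged cells. Binding sets off a burst of reactive oxygen, a cascade of MAP kinases and, through WRKY and other transcription factors, a broad change in transcripts. In Arabidopsis this programme is known for its tryptophan-derived defence chemicals (indole glucosinolates and camalexin), for secretion of callose and antimicrobial proteins, and for the hormones salicylic acid, jasmonate and ethylene, while growth and photosynthesis genes often go the other way.

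The 3 h libraries held 19629872, 17812087 and 19414265 counts and the 0 h libraries 18103765, 20009976 and 19359092 counts. Of 33318 genes listed, 21028 had enough counts to be tested. edgeR's quasi-likelihood test called 5584 of them (26.6%) at an adjusted p under 0.05, 3240 higher (15.4%) and 2344 lower (11.1%) at 3 h. The median log2 fold change was 0.77 among genes called higher and -0.44 among genes called lower, 1388 genes (6.6%) were called with a change of at least 2-fold, 1225 of them (5.83%) higher and 163 (0.775%) lower, and 103 against 2 changed at least 16-fold. The 3 h and 0 h libraries did not overlap for 38.1% of the tested genes. The number of calls depended on single libraries. In all 3216 genes were called without 3 h replicate 2, 3365 without 0 h replicate 1 and 3293 with the compared libraries only, and the lower calls numbered 1004, 1024 and 972 in those fits and 1460 without 3 h replicate 3. Genes called at least 2-fold stayed between 1160 and 1659 when any 1 library was left out.

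Samples were checked against markers of tissues. The leaf markers LHCB3, RBCS1A and CAB3 summed to 2380 to 3886 CPM (counts scaled to library size by the TMM method) at 3 h and 3663 to 4867 CPM at 0 h. The summed level of 7 root markers was 1124 to 1226 CPM at 3 h and 1003 to 1460 CPM at 0 h, with 1 of 7 called, and that of 6 guard cell markers 940 to 1368 CPM at 3 h and 1374 to 2104 CPM at 0 h, with none called. The storage protein and oleosin genes of seeds had 0 to 3 counts over each group of libraries. The material was whole seedlings by the labels and leaves by the extraction text. In such bulk tissue fewer cells of a type and less RNA per cell cannot be told apart.

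**Figure D1:**
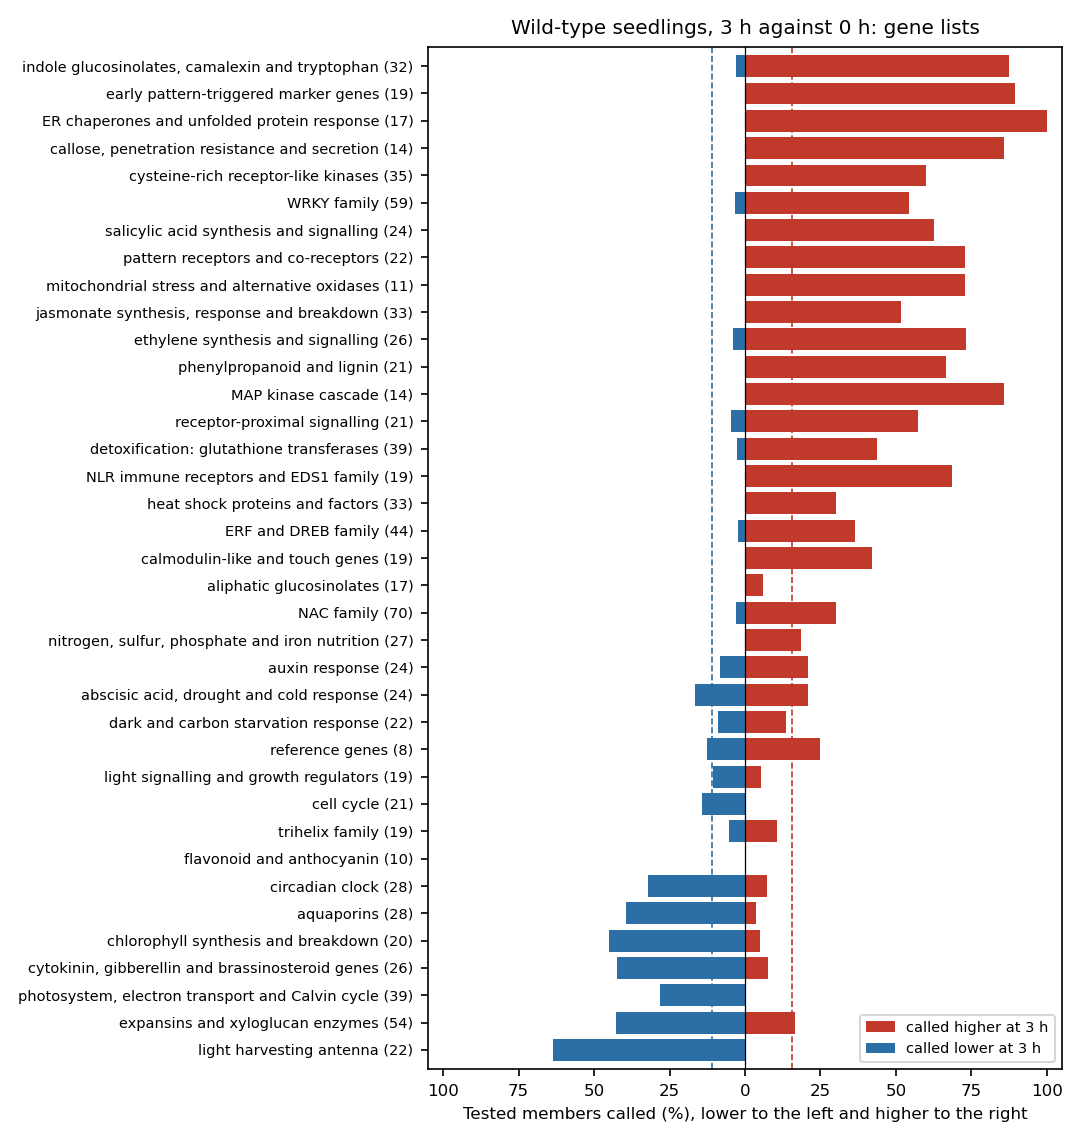
Share of tested members of each of 37 gene lists that were called higher (red, to the right) or lower (blue, to the left) in wild-type seedlings at 3 h against 0 h, with the number tested in brackets and the shares over all genes (15.4% and 11.1%) as dashed lines. Lists are ordered by their median log2 fold change, from indole defence compounds at the top to the light harvesting antenna at the bottom. Lists and members were chosen with earlier results of these data known, which can move their shares away from the dashed lines.

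Most of the listed genes for the perception of microbes rose. The list was chosen with earlier results of these data known. Of 22 pattern receptors and co-receptors 16 were called higher and 0 lower (72.7% called, against 26.6% of all genes). The median log2 fold change was 0.91 against -0.00024 over all genes. IOS1, a leucine-rich repeat kinase that joins receptor complexes, had 275, 375 and 366 CPM at 3 h, against 19.3, 36.0 and 63.3 CPM at 0 h (log2 fold change 3.1, SE 0.36, edgeR adjusted p = 1.47e-05). Every 3 h library lay above every 0 h library, although the 0 h libraries themselves spread over a wide range. CERK1, the kinase needed for chitin perception, and its partner LYK4 rose by 1.3 and 1.37 in log2 terms (SE 0.18 and 0.21). SERK4 and BAK1, co-receptors of many such kinases, rose by 1.36 and 0.91, and SOBIR1, the partner of receptor-like proteins, by 1.04. SD1-29, a lectin receptor kinase for a bacterial lipid, rose by 1.61 (SE 0.29). FLS2, the flagellin receptor, was 1 of 6 members not called, at 89.9 ± 2.32 CPM at 3 h and 90.0 ± 5.07 CPM at 0 h (SD, n = 3 each) with an edgeR adjusted p of 0.996. EFR, which binds a bacterial elongation factor, rose by 0.73 (SE 0.23), and the call was lost without 0 h replicate 1, without 0 h replicate 2, without 3 h replicate 1, without 3 h replicate 2 and without 3 h replicate 3 (adjusted p 0.0525 to 0.104). Calls of 13 of the 16 receptor genes held in every alternative tried.

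Downstream of the receptors, 12 of 21 receptor-proximal genes were called higher and 1 lower (61.9% called, against 26.6% of all genes). The lower one was the cyclic-nucleotide-gated channel CNGC4, with a log2 fold change of -0.58. The ubiquitin ligases PUB22, PUB23 and PUB24, which damp immune signalling, rose by 2.55, 2.91 and 1.80 (log2, SE 0.32, 0.33 and 0.20). RBOHD, the oxidase that makes the immune oxidative burst, had 143, 159 and 115 CPM at 3 h and 42.9, 44.2 and 60.1 CPM at 0 h. The 2 groups of libraries did not overlap for RBOHD (log2 fold change 1.5, SE 0.21, edgeR adjusted p = 8.94e-05). BIK1, the kinase that activates RBOHD, rose by 0.91 (SE 0.17). For CNGC4, the call was lost with the compared libraries only, without 0 h replicate 1, without 3 h replicate 2 and without 3 h replicate 3 (adjusted p 0.0820 to 0.113).

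In the MAP kinase cascade 12 of 14 members were called higher and 0 lower (85.7% called, against 26.6% of all genes). The median log2 fold change was 0.58, and 9 of the 12 calls held in every alternative tried. The steepest member was PP2C5, a phosphatase that turns MAP kinases off, at 7.22, 9.16 and 9.13 CPM at 3 h and 0.515, 0.247 and 0.156 CPM at 0 h (log2 fold change 4.8, SE 0.47). MPK11, a MAP kinase with low basal expression, rose by 2.90 (SE 0.50), and the log2 fold change was 3.72 without 0 h replicate 1. The kinases MKK9, MKK4 and MPK3 rose by 1.27, 0.99 and 0.64, and MKS1, a substrate of MAP kinases that binds WRKY factors, by 0.84. MPK6, the partner of MPK3, was not called, at 125 ± 3.82 CPM at 3 h and 112 ± 2.2 CPM at 0 h (SD, n = 3 each).

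Widely used marker genes of the early pattern-triggered response were among the strongest changes. Of 19 markers 17 were called higher, all of these at least 2-fold, and 0 lower, with a median log2 fold change of 1.85. With a replicate block 1 was called lower. Over all genes 15.4% were called higher and 5.83% higher by at least 2-fold. FRK1, a receptor kinase gene used as a reporter of this response, had 235, 259 and 396 CPM at 3 h and 1.54, 3.11 and 18 CPM at 0 h. The lowest 3 h library was thus far above the highest 0 h library, and the 0 h libraries differed among themselves, replicate 3 being highest. The log2 fold change was 5.29 (SE 0.79, edgeR adjusted p = 1.61e-04), and the log2 fold change was 6.97 without 0 h replicate 3. PROPEP3 and PROPEP2, precursors of danger peptides that plant cells release, had 19.5, 23.5 and 24.9 CPM and 10.4, 10.2 and 17.0 CPM at 3 h, and 0.172, 0.198 and 0.156 CPM and 0.114, 0.494 and 0.571 CPM at 0 h. Both were close to absent at 0 h, and their log2 fold changes were 6.96 and 4.94 (SE 0.66 and 0.51). YLS9, a membrane protein also known as a defence marker, rose by 3.83, and the log2 fold change was 4.64 without 0 h replicate 3. The summed level of the list was 2570 to 3030 CPM at 3 h and 598 to 933 CPM at 0 h, where replicate 3 was the highest of the 0 h libraries. PHI-1, a phosphate-induced gene, had 29.4, 24.7 and 10.9 CPM at 3 h and 54.5, 38.5 and 44.1 CPM at 0 h and was not called.

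WRKY factors bind the W box, here searched for as TTGACC and TTGACT on both strands in the 250 bases before the start of each gene. A W box was found upstream of 57.8% of 441 protein-coding genes called at least 4-fold higher, of 40.8% of the 3205 called higher and of 22.1% of the 2286 called lower, against 28.7% of all 20387 tested protein-coding genes. The share was 63.2% among the early markers (12 of 19), 50% among indole defence genes, 35.6% in the WRKY family, 17.6% among ER chaperones and 15.2% among heat shock genes. The upstream sequences of PROPEP3 and WRKY30 are shown because they hold 4 and 3 matches in front of genes among the strongest rises. They are from RefSeq (TAIR10.1), 5′ to 3′ on the gene's strand, and overlap no other annotated gene, and W box matches on either strand are in capitals.
PROPEP3 upstream (chr5:25939312-25939561, plus strand): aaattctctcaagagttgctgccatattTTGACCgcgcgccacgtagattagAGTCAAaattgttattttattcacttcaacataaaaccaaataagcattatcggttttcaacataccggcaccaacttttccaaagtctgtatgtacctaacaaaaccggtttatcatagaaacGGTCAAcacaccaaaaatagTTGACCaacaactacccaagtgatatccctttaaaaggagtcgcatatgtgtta
WRKY30 upstream (chr5:8154711-8154960, minus strand): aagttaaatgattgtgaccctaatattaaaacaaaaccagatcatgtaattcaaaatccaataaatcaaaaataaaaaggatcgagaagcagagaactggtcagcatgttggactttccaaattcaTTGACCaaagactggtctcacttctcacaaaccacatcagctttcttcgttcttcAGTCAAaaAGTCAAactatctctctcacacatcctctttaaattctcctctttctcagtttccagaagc
In PROPEP3 the match nearest to the gene start lay 49 to 54 bases before it and the farthest 217 to 222 bases before it. In WRKY30 the matches lay 56 to 124 bases before the start, the nearest 2 separated by 2 bases. A match describes letters only, and binding was not measured.

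**Figure D2:**
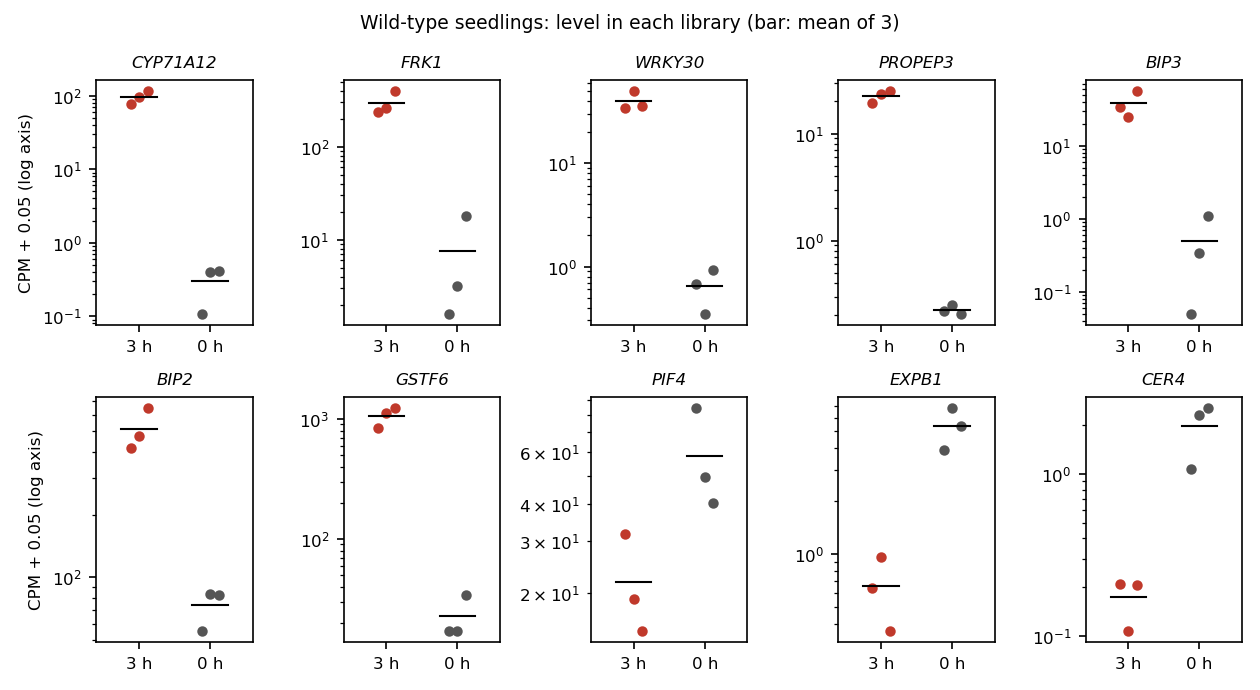
Level of 10 genes in each of the 3 wild-type libraries at 3 h (red) and at 0 h (grey), in CPM plus 0.05 on a log axis that differs between panels, with the mean of 3 libraries as a bar. The 3 h and 0 h libraries do not overlap in any of the 10 panels. The 3 h libraries lie above in 7 panels (CYP71A12 to GSTF6) and below in 3 (PIF4, EXPB1 and CER4). Most of these genes, among them CYP71A12, GSTF6, PIF4, EXPB1 and CER4, head a ranking that admitted only genes without overlap. For those genes the lack of overlap was set by the choice. Over all tested genes the groups did not overlap for 38.1%.

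Many genes of the WRKY family itself rose. Of 59 tested members (of 67) 32 were called higher, 23 of them at least 2-fold, and 2 lower, with a median log2 fold change of 0.92. Over all genes 15.4% were called higher and 5.83% higher by at least 2-fold. WRKY30 had 34.0, 49.9 and 36.0 CPM at 3 h and 0.629, 0.297 and 0.883 CPM at 0 h (log2 fold change 6.05, SE 0.44, edgeR adjusted p = 2.19e-07). WRKY53, a regulator of senescence and defence, rose by 3.27 (SE 0.24), WRKY55 and WRKY41 by 3.17 and 2.36, and WRKY29, a target of the MAP kinase cascade, by 2.29. WRKY33, which activates camalexin genes, had 201, 220.0 and 167 CPM at 3 h and 50.7, 52.0 and 60.1 CPM at 0 h, and rose by 1.85 (SE 0.21). WRKY40 and WRKY18, which restrain immune genes, rose by 1.94 and 1.65, so members known to promote and to restrain defence both stood higher at 3 h. The lower calls were WRKY42, with a log2 fold change of -0.99, and WRKY3, with -0.24. The number of lower members was 0 without 0 h replicate 1 and 1 with the compared libraries only, without a filter, without 0 h replicate 3, without 3 h replicate 1, without 3 h replicate 2 and without 3 h replicate 3. For WRKY42, the call was lost without 0 h replicate 1 (adjusted p = 0.0679). For WRKY3, the call was lost with the compared libraries only, without a filter, without 0 h replicate 1, without 0 h replicate 3, without 3 h replicate 1, without 3 h replicate 2 and without 3 h replicate 3 (adjusted p 0.0514 to 0.215). Calls of 24 of the 34 WRKY genes held in every alternative tried.

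The ERF and NAC families were also counted. In the ERF and DREB family 16 of 44 tested members were called higher and 1 lower (38.6% called, against 26.6% of all genes), with a median of 0.26. ORA59 and ERF1, which join jasmonate and ethylene responses, rose by 2.78 and 2.49 (SE 0.27 and 0.31), RAP2.9 by 2.35, and the ethylene response factors ERF2 and ERF6 by 1.72 and 1.71. RAP2.7, a repressor of flowering, was the member called lower (log2 fold change -0.32, SE 0.08), and the call was lost with the compared libraries only (adjusted p = 0.0639). In the NAC family 21 of 70 were called higher and 2 lower (32.9% called, against 26.6% of all genes), with a median of 0.17. The higher members numbered 15 with the compared libraries only, without 0 h replicate 1 and without 3 h replicate 2. Calls of 13 of the 23 held in every alternative tried. NAC042 had 8.50, 12.2 and 9.91 CPM at 3 h and 0.114, 0.840 and 0.623 CPM at 0 h (log2 fold change 4.22, SE 0.29). It is known as a regulator of camalexin synthesis and of longevity, and all its 3 h libraries lay above its 0 h libraries. NAC019, a jasmonate-responsive factor, and ATAF2, a repressor of some defence genes, rose by 1.66 and 1.47 (SE 0.32 and 0.16). NAC070 and NAC101 were called lower, at log2 fold changes of -1.70 and -0.95. For NAC070, which acts in the root cap, the call was lost with the compared libraries only, without 0 h replicate 2, without 0 h replicate 3, without 3 h replicate 1, without 3 h replicate 2 and without 3 h replicate 3 (adjusted p 0.0575 to 0.162). For NAC101, a regulator of xylem vessels, the call was lost with the compared libraries only, without 0 h replicate 2, without 0 h replicate 3, without 3 h replicate 1 and without 3 h replicate 2 (adjusted p 0.0679 to 0.128). The NAC members called lower numbered 0 with the compared libraries only, with a stricter filter, without 0 h replicate 2, without 0 h replicate 3, without 3 h replicate 1 and without 3 h replicate 2 and 1 without 3 h replicate 3, and the lower ERF and DREB members 0 with the compared libraries only and 2 with library totals alone and without 3 h replicate 1.

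The listed genes that make tryptophan and turn it into indole defence compounds rose in most cases. Of 32 tested members 28 were called higher, all of these at least 2-fold, with a median log2 fold change of 2.04. Over all genes 15.4% were called higher and 5.83% higher by at least 2-fold. In every alternative tried 27 of the 29 calls held. CYP71A12, a cytochrome P450 that acts on indole-3-acetaldoxime, had 77.6, 96.9 and 115 CPM at 3 h and 0.0572, 0.346 and 0.363 CPM at 0 h. The log2 fold change was 8.49 (SE 0.60, edgeR adjusted p = 2.19e-07). CYP71A13, its near-identical neighbour that serves camalexin synthesis, had 12 counts over the 3 h libraries and 6 over the 0 h libraries and was not tested. How reads shared by the pair were assigned is not given in the sources used here, so the split between them is uncertain. At the start of the pathway, ASA1 and ASB1, subunits of anthranilate synthase, rose by 2.62 and 3.25 (SE 0.26 and 0.28). ASB1 had 179.6, 235 and 249 CPM at 3 h, against 21.8, 20.3 and 27.5 CPM at 0 h. TRP1, TSA1 and TSB1, which carry out later steps of tryptophan synthesis, rose by 2.15, 3.67 and 2.13. The upstream sequence of ASB1 is shown because this first enzyme holds 3 W box matches (in capitals) and 16 of the list's 32 members hold at least 1.
ASB1 upstream (chr1:8839610-8839859, minus strand, RefSeq TAIR10.1): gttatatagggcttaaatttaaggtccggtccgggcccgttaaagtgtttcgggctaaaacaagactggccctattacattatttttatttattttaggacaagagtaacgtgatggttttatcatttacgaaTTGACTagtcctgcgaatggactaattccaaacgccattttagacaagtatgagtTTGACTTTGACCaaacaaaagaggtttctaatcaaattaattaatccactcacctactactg
Of these matches 2 lay side by side, 51 to 62 bases before the gene start.

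Within indole metabolism the core enzymes CYP79B2, CYP79B3 and CYP83B1 rose by 2.3, 1.32 and 2.62, and the sulfotransferase SOT16, which completes the indole core structure, by 2.70. CYP81F2, which hydroxylates indole glucosinolates for defence, had 148, 217 and 168 CPM at 3 h, against 5.55, 6.23 and 9.29 CPM at 0 h (log2 fold change 4.66, SE 0.33). The methyltransferase IGMT2, which acts after it, had 152, 269 and 212 CPM at 3 h and 2.57, 2.87 and 2.65 CPM at 0 h, with replicates that agreed within narrow bounds at 0 h (log2 fold change 6.28, SE 0.30). IGMT2 has a close copy, IGMT1, which rose by 1.52, and the division of reads between them is uncertain. PEN2 and PEN3, the hydrolase and the exporter of the products, rose by 1.39 and 1.42, and PAD3, the last enzyme of camalexin synthesis, by 1.46. CYP82C2, a P450 of the indole carbonyl nitrile branch, had 0.428, 0.398 and 4.64 CPM at 3 h and 0, 0 and 0.208 CPM at 0 h (log2 fold change 4.59, SE 1.53), and the call was lost without 0 h replicate 1, without 0 h replicate 2, without 0 h replicate 3 and without 3 h replicate 3 (adjusted p 0.0564 to 0.327), and the log2 fold change was 8.17 without 0 h replicate 3 and 2.45 without 3 h replicate 3. The MYB factors of the pathway differed. MYB51, which is known to respond to pathogen signals, had 143, 234 and 152 CPM at 3 h and 24.2, 23.5 and 34.1 CPM at 0 h and rose by 2.69 (SE 0.27). MYB34, which sets basal levels mostly in roots, had 12.7, 12.5 and 9.65 CPM at 3 h and 16.7, 17.5 and 22.0 CPM at 0 h and was the member called lower (log2 fold change -0.69, SE 0.14, edgeR adjusted p = 0.00213).

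Methionine-derived (aliphatic) glucosinolate genes did not follow. Of 17 tested members 1 was called higher and 0 lower, with a median of 0.18, below the 26.6% of all genes that were called. The member called was the sulfotransferase SOT17 (log2 fold change 2.95, SE 0.35). CYP79F1, the first enzyme of the core pathway, was at 1.59 ± 0.253 CPM at 3 h and 1.18 ± 0.657 CPM at 0 h (SD, n = 3 each) and was not called. The aliphatic members called higher numbered 2 by DESeq2, with a replicate block and without 0 h replicate 3 and 3 without 3 h replicate 1, and the lower ones 1 without 3 h replicate 3. In the phenylpropanoid and lignin list 14 of 21 members were called higher and 0 lower (66.7% called), with a median of 0.65. Of these 14 calls 10 held in every alternative tried, and 1 member was called lower without 3 h replicate 1. MYB15, which promotes defence lignin, rose by 3.05 (SE 0.35), the entry enzymes PAL1 and PAL2 by 1.04 and 1.24, and CCR2 and OMT1, enzymes on the way to lignin, by 1.46 and 1.58. C4H, the enzyme after PAL, had 447, 502 and 521 CPM at 3 h and 183, 234 and 198 CPM at 0 h. The flavonoid and anthocyanin branch of the same pathway had 10 of 20 members with enough counts, and 0 were called higher and 0 lower (1 higher without a filter, and 1 higher and 1 lower without 0 h replicate 2).

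Many of the listed salicylic acid genes rose, among them genes of its synthesis and their regulators. Of 24 tested members 15 were called higher and 0 lower (62.5% called, against 26.6% of all genes), with a median of 0.91. The lower members numbered 1 by DESeq2, with a replicate block, without 0 h replicate 3 and without 3 h replicate 1. EDS16, isochorismate synthase and the main source of salicylic acid, had 40.8, 37.0 and 32.3 CPM at 3 h and 5.78, 5.39 and 9.86 CPM at 0 h (log2 fold change 2.39, SE 0.27, edgeR adjusted p = 1.42e-05). Its activators CBP60G and SARD1 rose by 2.06 and 1.61, FMO1, which makes N-hydroxypipecolic acid for systemic resistance, by 1.54, and AZI1, a lipid transfer protein of the same response, by 2.54. For AZI1, the log2 fold change was 3.51 without 0 h replicate 3. PR1 and BGL2, classical late targets of salicylic acid, had 3 and 12 counts over the 3 h libraries and 2 and 6 counts over the 0 h libraries, too few to test. Among intracellular NLR receptors and the EDS1 family 13 of 19 were called higher and 0 lower (68.4% called), with a median of 0.45. The higher members numbered 9 without 0 h replicate 1, without 0 h replicate 2 and without 3 h replicate 2. Calls of 8 of the 13 held in every alternative tried. PAD4, the partner of EDS1, rose by 1.55 and EDS1 by 0.57 (SE 0.17 and 0.11). RPS2 and ZAR1, receptors that sense the action of bacterial effectors, rose by 1.56 and 0.89, NDR1, which RPS2 needs, by 1.03, and the helper receptor ADR1-L1 by 0.85.

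Jasmonate and ethylene genes also rose in part. Of 33 jasmonate genes 17 were called higher and 0 lower (51.5% called, against 26.6% of all genes), with a median of 0.72. In every alternative 11 of the 17 calls held. CYP94C1, which breaks down active jasmonate, had 57.9, 64.6 and 49.1 CPM at 3 h and 8.70, 3.26 and 11.7 CPM at 0 h (log2 fold change 2.86, SE 0.47). The repressor JAZ1 and the lipoxygenase LOX4 rose by 2.49 and 2.74, while MYC2, the main activator of wound responses, was at 85.6 ± 13.6 CPM at 3 h and 70.7 ± 3.65 CPM at 0 h (SD, n = 3 each) and was not called. PDF1.2, the classical late target of ORA59, had 1 count over the 3 h libraries and 0 over the 0 h libraries. Of 26 ethylene genes 19 were called higher and 1 lower (76.9% called), with a median of 0.69. The higher members numbered 15 without 0 h replicate 1, and calls of 14 of the 20 held in every alternative tried. ACS8 and ACS7, which make the precursor of ethylene, rose by 2.87 and 2.77 (SE 0.36 and 0.44). ACS8 had 10.9, 13.1 and 12.0 CPM at 3 h and 1.43, 0.791 and 2.70 CPM at 0 h, and its log2 fold change against the same 0 h libraries was -1.58 at 1 h and 2.87 at 3 h. For ACS7, the log2 fold change was 3.54 without 0 h replicate 3. EIN2, the central membrane protein of ethylene signalling, was the member called lower, with a log2 fold change of -0.22 (SE 0.074), and the call was lost with the compared libraries only, without 0 h replicate 1, without 0 h replicate 2, without 0 h replicate 3, without 3 h replicate 2 and without 3 h replicate 3 (adjusted p 0.0593 to 0.159).

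Of 24 tested abscisic acid, drought and cold genes 5 were called higher and 4 lower (37.5% called, against 26.6% of all genes), with a median of 0.095. The receptors PYL4, PYL5 and PYL6 rose by 0.89, 0.95 and 1.31 (SE 0.13, 0.11 and 0.20) and so did CYP707A3, which breaks abscisic acid down, by 1.34. ABF3, an activator of drought genes, fell by 0.50 (SE 0.12). The lower members numbered 1 with the compared libraries only, without 0 h replicate 1, without 3 h replicate 2 and without 3 h replicate 3 and 8 without 3 h replicate 1. Of 24 tested auxin genes 5 were called higher and 2 lower, a share of 29.2% that is near the 26.6% of all genes. GH3.3, which conjugates auxin, had 13.7, 23.9 and 25 CPM at 3 h and 4.23, 4.25 and 2.08 CPM at 0 h (log2 fold change 2.57, SE 0.32), and the auxin-responsive factor HAT2 rose by 1.67 (SE 0.13). The auxin repressors IAA19 and IAA2 rose by 1.01 and 0.93. The members called lower were DFL1 and WES1, which conjugate auxin as GH3.3 does, at -0.72 and -0.47. For DFL1, the call was lost without 0 h replicate 1, without 0 h replicate 2, without 3 h replicate 1 and without 3 h replicate 2 (adjusted p 0.0812 to 0.123). For WES1, the call was lost without 3 h replicate 2 (adjusted p = 0.0610). Against the same 0 h libraries GH3.3 and HAT2 stood at -0.44 and -0.043 at 1 h.

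The listed genes of the folding machinery of the endoplasmic reticulum (ER), where secreted and membrane proteins mature, rose. The list was chosen with earlier results of these data known. All 17 tested ER chaperones and regulators of the unfolded protein response were called higher, 14 of them at least 2-fold, with a median log2 fold change of 1.45. Over all genes 15.4% were called higher and 5.83% higher by at least 2-fold. Calls of 16 of the 17 held in every alternative, and 16 were called with the compared libraries only. BIP3, an ER chaperone of the HSP70 type known to be induced under ER stress, had 34.2, 24.7 and 55.5 CPM at 3 h and 0, 0.297 and 1.04 CPM at 0 h. The 0 h libraries ran from no count to a low level and the 3 h libraries lay well above them (log2 fold change 6.37, SE 0.71, edgeR adjusted p = 1.03e-05), and the log2 fold change was 7.86 without 0 h replicate 3. Its abundant relatives BIP1 and BIP2 had 445, 527 and 699 CPM and 415, 475 and 644 CPM at 3 h, and 85.1, 111 and 119 CPM and 55.2, 82.8 and 82.3 CPM at 0 h. BIP1 and BIP2 are near-identical in sequence, so their shares of the reads are uncertain, but each rose (log2 fold change 2.40 and 2.80, SE 0.25 and 0.29). The lectin chaperone CNX1 rose by 2.40, the co-chaperones ATERDJ3A and ATERDJ3B by 3.68 and 2.57, the disulfide isomerase PDIL1-2 by 2.28, SHD, the ER form of HSP90, by 1.45, and BZIP60, a transcription factor activated by ER stress, by 1.19.

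The 1 h libraries were set beside these values. At 1 h, when 48.2% of all genes were called against the same 0 h libraries, 7 of the 17 members were called higher with a median of 0.39, and at 3 h all were, with a median of 1.45. Over the same interval the early pattern-triggered markers had medians of 2.57 at 1 h and 1.85 at 3 h. BIP3 was at 0.445 ± 0.535 CPM at 0 h, 0.353 ± 0.202 CPM at 1 h and 38.2 ± 15.8 CPM at 3 h, CNX1 at 96.7 ± 6.61, 139 ± 25.9 and 511 ± 122 CPM, and PDIL1-2 at 26.5 ± 4.08, 32.4 ± 4.07 and 129 ± 29.0 CPM (SD, n = 3 at each time). The values at 1 h and at 3 h share their 0 h libraries, and the difference between the 2 times was not tested. For BIP3, the log2 fold change was 7.86 without 0 h replicate 3. The upstream sequence of BIP3 is shown because it holds 2 copies of the ER stress element, searched for on both strands as CCAAT followed after any 10 bases by CACG, or ATTGG followed after any 1 base by CCACG. Both forms end in CACG, which is also the start of the G box CACGTG, so the motifs can overlap. Such a match stood upstream of 5 of the 17 ER genes (29.4%), which besides BIP3 are CRT1a, PDIL1-1, PDIL1-2 and SHD, and of 0.873% of all tested protein-coding genes. Matches are in capitals.
BIP3 upstream (chr1:2931851-2932100, minus strand, RefSeq TAIR10.1): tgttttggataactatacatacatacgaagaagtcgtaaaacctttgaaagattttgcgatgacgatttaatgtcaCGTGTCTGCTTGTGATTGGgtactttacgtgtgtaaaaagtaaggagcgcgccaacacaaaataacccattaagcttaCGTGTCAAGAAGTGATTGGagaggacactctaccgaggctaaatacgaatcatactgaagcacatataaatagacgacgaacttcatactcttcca
The matches lay 156 to 174 and 78 to 96 bases before the gene start. The G box was found upstream of 35.3% of the ER genes and of 7.19% of all tested protein-coding genes.

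**Figure D3:**
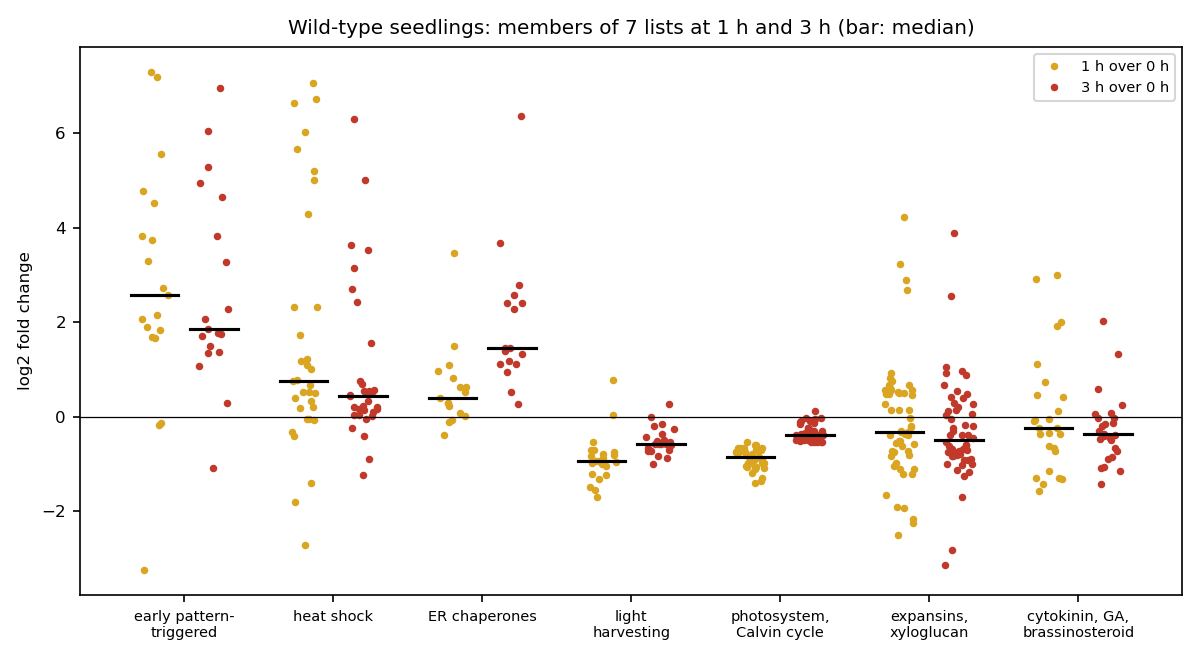
Log2 fold change of each tested member of 7 gene lists in wild-type seedlings at 1 h (yellow) and 3 h (red), both against the same 3 libraries at 0 h, with the median as a bar. The ER chaperone median was 0.39 at 1 h and 1.45 at 3 h, and the medians of the light harvesting and photosystem lists were -0.94 and -0.85 at 1 h and -0.57 and -0.38 at 3 h.

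Some heat shock genes rose. Of 33 tested heat shock proteins and factors 19 were called higher at 1 h and 10 at 3 h, with medians of 0.75 and 0.44 against the same 0 h libraries. Over all genes 48.2% were called at 1 h and 26.6% at 3 h, near the 30.3% of the list called at 3 h, and the difference between the times was not tested. HSP17.4, a cytosolic small heat shock protein, had 20.8, 22.4 and 45.0 CPM at 3 h and 0.114, 0.494 and 0.467 CPM at 0 h (log2 fold change 6.30, SE 0.94, edgeR adjusted p = 1.57e-04). All 0 h libraries were below 1 CPM. HSP17.6II, a further small heat shock protein, had 3.85, 5.23 and 8.34 CPM at 3 h and 0, 0.297 and 0.208 CPM at 0 h (log2 fold change 5.01, SE 1.03), and the log2 fold change was 5.66 without 0 h replicate 2. The cytosolic chaperones HSP90.1 and HSP70 rose by 2.69 and 2.43 at 3 h, after 5.21 and 5.0 at 1 h, and HSFA2, a heat-induced activator, by 3.63, after 7.06 at 1 h. For HSFA2, the log2 fold change was 4.46 without 0 h replicate 3. The upstream sequence of HSP17.4 is shown because it holds 2 heat shock elements (in capitals), searched for as GAA, TTC and GAA or TTC, GAA and TTC, each time with any 2 bases between them, which covers both strands. They were found upstream of 4 of 33 heat shock genes (12.1%) and of 0.422% of all tested protein-coding genes.
HSP17.4 upstream (chr3:16984868-16985117, minus strand, RefSeq TAIR10.1): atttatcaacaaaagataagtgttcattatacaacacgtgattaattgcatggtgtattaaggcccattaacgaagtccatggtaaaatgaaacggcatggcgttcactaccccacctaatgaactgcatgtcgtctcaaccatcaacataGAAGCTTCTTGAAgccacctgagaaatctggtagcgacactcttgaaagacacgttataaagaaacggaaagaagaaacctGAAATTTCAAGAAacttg

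Most of the listed genes for cell wall defence and secretion rose. Their list, too, was chosen with earlier results of these data known. Of 14 tested members 12 were called higher and 0 lower (85.7% called, against 26.6% of all genes), with a median of 1.08. MLO12 and MLO6, membrane proteins that mildew fungi rely on, rose by 3.56 and 2.12 (SE 0.32 and 0.23), and MLO12 had 258, 370.1 and 374 CPM at 3 h and 14.4, 28.6 and 41.8 CPM at 0 h. The syntaxins SYP121 and SYP122, which fuse secretory vesicles at sites of attack, rose by 1.59 and 1.83 their partner SNAP33 by 1.11, and EXO70B2, a subunit of the exocyst that tethers vesicles, by 1.42. Cysteine-rich receptor-like kinases are a family of plasma membrane kinases encoded largely in tandem arrays. In this family 21 of 35 tested members were called higher and 0 lower (60% called), with a median of 0.98. The higher members numbered 16 without 0 h replicate 1 and without 0 h replicate 2 and 24 without 3 h replicate 1. In every alternative tried 15 of the 21 calls held. The lower members numbered 1 by DESeq2, with RLE scaling, with library totals alone, with a replicate block and with a stricter filter. The same number was called lower without 0 h replicate 2 and without 3 h replicate 1. CRK20 had 25.3, 42.1 and 42.4 CPM at 3 h and 0.114, 0.148 and 0.883 CPM at 0 h, a log2 fold change of 6.54 (SE 0.61), and the log2 fold change was 8.04 without 0 h replicate 3. CRK31 and CRK13 rose by 5.42 and 3.70, and for CRK13 the log2 fold change was 4.45 without 0 h replicate 3. Tandem copies are alike in sequence, so single members are uncertain.

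Some detoxification and mitochondrial stress genes also rose. Of 39 tested glutathione transferases, enzymes that couple glutathione to toxic compounds, 17 were called higher and 1 lower, and the other 21 were not called. The share called was 46.2%, against 26.6% of all genes. GSTF6 and GSTF7 had 841, 1117 and 1226 CPM and 865, 1039.7 and 1244 CPM at 3 h, and 17.2, 17.0 and 33.9 CPM and 23.4, 29.4 and 35.5 CPM at 0 h, which placed both among the abundant transcripts at 3 h. They are close copies, with log2 fold changes of 5.55 and 5.16 (SE 0.40 and 0.38). GSTU12 rose by 6.86, and the log2 fold change was 7.71 without 0 h replicate 3. GSTU11 and GSTU4 rose by 4.89 and 2.72. GSTU26 was the member called lower (log2 fold change -0.75, SE 0.24), and the call was lost with the compared libraries only, without 0 h replicate 2, without 0 h replicate 3, without 3 h replicate 1 and without 3 h replicate 3 (adjusted p 0.0615 to 0.138). Among genes of mitochondrial stress 8 of 11 tested were called higher and 0 lower (72.7% called). The alternative oxidase AOX1A and the alternative dehydrogenase NDB2, which bypass energy conservation, rose by 0.81 and 1.14 (SE 0.19 and 0.12), the carrier UCP5 by 1.39 and BCS1, a membrane ATPase used as a marker of this stress, by 1.52. AOX1D had 26 counts over the 3 h libraries and 3 over the 0 h libraries, a ratio of 8.9 (95% exact interval 2.73 to 46, counting error only). In the mitochondrial list the calls numbered 5 with the compared libraries only, without 0 h replicate 1, without 0 h replicate 2 and without 3 h replicate 2. Of 19 tested calmodulins and touch genes, which bind calcium, 8 were called higher and 0 lower (42.1% called). TCH3 had 1514, 1803 and 1382 CPM at 3 h and 394, 367 and 645 CPM at 0 h (log2 fold change 1.74, SE 0.25). CML42, CML38 and CAM9 rose by 1.82, 1.35 and 1.65.

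Photosynthesis transcripts were lower at 3 h, by small amounts and with calls that depended on single libraries. Of 22 tested light harvesting antenna genes 14 were called lower and 0 higher (63.6% called, against 26.6% of all genes), with a median of -0.57. LHCB2.2, an antenna protein of photosystem II, had 22.1, 19.5 and 13.5 CPM at 3 h and 40.2, 30.6 and 26.7 CPM at 0 h (log2 fold change -0.83, SE 0.17, edgeR adjusted p = 0.00208). CAB3, a further member, had 71.8, 77.1 and 63.9 CPM at 3 h, against 148, 107 and 95 CPM at 0 h, and its log2 fold change was -0.72 (SE 0.16). Both kept their calls in every alternative, as did 1 further member. LHB1B2 fell by 1.00 (SE 0.26), and the call was lost with the compared libraries only (adjusted p = 0.0720). Antenna genes are alike in sequence and their counts may share reads. The summed level of the list was 26497, 16195 and 15163 CPM in 3 h replicates 1, 2 and 3, against 37561, 27779 and 26585 CPM in 0 h replicates 1, 2 and 3. Replicate 1 was the highest at each time, so that 3 h replicate 1 came close to the lowest 0 h library. The lower members numbered 4 with the compared libraries only, 5 without 0 h replicate 1 and 7 without 3 h replicate 2 and without 3 h replicate 3.

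In the list for photosystems, electron transport and the Calvin cycle 11 of 39 members were called lower and 0 higher, with a median of -0.38. The share called was 28.2%, near the 26.6% of all genes, and 11.1% of all genes were called lower. None of the 11 calls held in every alternative. PSBO1, a protein of the oxygen-evolving complex, had 1158, 705 and 864 CPM at 3 h and 1573, 1176 and 1189.7 CPM at 0 h (log2 fold change -0.53, SE 0.16), and the call was lost with the compared libraries only, without 0 h replicate 1, without 3 h replicate 2 and without 3 h replicate 3 (adjusted p 0.0768 to 0.138). The lower members numbered 0 with the compared libraries only, without 0 h replicate 1, without 3 h replicate 2 and without 3 h replicate 3 and 25 without 3 h replicate 1. The summed level was 23445, 14286 and 20543 CPM in 3 h replicates 1, 2 and 3, against 28413, 20674 and 23828 CPM in 0 h replicates 1, 2 and 3, and these ranges overlap. The 3 mesophyll markers, LHCB3, RBCS1A and CAB3, summed to 3886, 2380 and 3881 CPM at 3 h and 4867, 3663 and 4103 CPM at 0 h, with 2 of 3 called lower, and their part in the result was not tested. The small subunit genes of Rubisco, RBCS1A and RBCS2B, were at 3141 ± 845 CPM and 947 ± 202 CPM at 3 h and at 3783 ± 513 CPM and 868 ± 109 CPM at 0 h (SD, n = 3 each) and were not called. At 1 h, when 48.2% of all genes were called against the same 0 h libraries, 20 antenna genes and 38 of the second list were called lower, with medians of -0.94 and -0.85. The difference between 1 h and 3 h was not tested. Of 20 chlorophyll genes 9 were called lower and 1 higher at 3 h (50% called). CRD1, an enzyme that closes the chlorophyll ring, fell by 0.58 (SE 0.13), with a call that held in every alternative. The lower chlorophyll members numbered 1 without 0 h replicate 1 and 2 with the compared libraries only and without 3 h replicate 2.

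**Figure D4:**
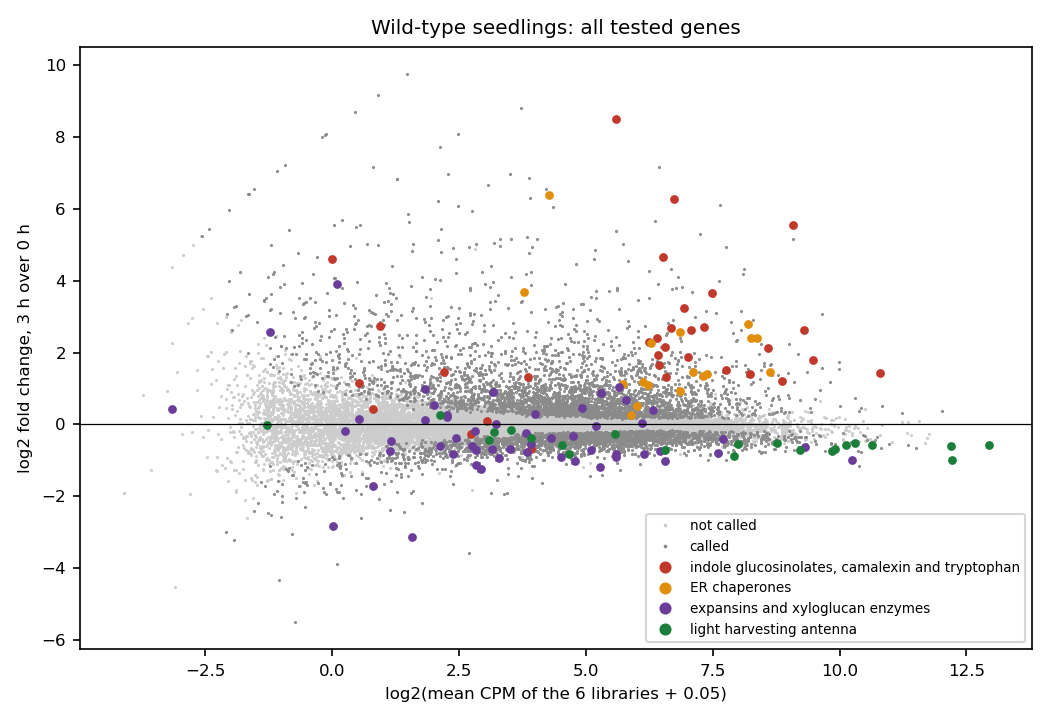
Log2 fold change at 3 h over 0 h in wild-type seedlings against log2 of the mean level over the 6 libraries (CPM plus 0.05) for 21028 genes, with called genes in dark grey and tested members of 4 lists in colour whether called or not. ER chaperones (orange) lie above 0, indole defence genes (red) mostly above 0, expansins and xyloglucan enzymes (purple) lie on both sides, and antenna genes (green) lie mostly a little below 0.

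Clock genes changed by small amounts. Of 28 clock genes 9 were called lower and 2 higher (39.3% called, against 26.6% of all genes), with a median of -0.25. GRP7, a clock-controlled RNA-binding protein, had 2536, 2150.3 and 2109 CPM at 3 h and 4056, 3469 and 3127 CPM at 0 h (log2 fold change -0.65, SE 0.14), and CDF3 fell by 0.68. The central clock genes CCA1 and TOC1 were not called, CCA1 with 0.695, 0.569 and 1.1 CPM at 3 h and 0.629, 1.38 and 1.09 CPM at 0 h and TOC1 with 384, 343 and 348 CPM at 3 h and 449.9, 395 and 391 CPM at 0 h. The members called higher were RVE8 and RVE1, factors related to CCA1, at log2 fold changes of 0.50 and 0.40. For RVE8, the call was lost with the compared libraries only, with library totals alone, without 0 h replicate 1, without 0 h replicate 2, without 3 h replicate 2 and without 3 h replicate 3 (adjusted p 0.0607 to 0.179). For RVE1, the call was lost with the compared libraries only, with library totals alone, without 0 h replicate 1, without 0 h replicate 2, without 0 h replicate 3, without 3 h replicate 2 and without 3 h replicate 3 (adjusted p 0.0512 to 0.150). The lower clock members numbered 4 without 0 h replicate 1 and 5 with the compared libraries only. In the light signalling list 2 of 19 members were called lower and 1 higher (15.8% called, against 26.6% of all genes). Of these 3 calls 0 held in every alternative. The lower members numbered 0 without 0 h replicate 1 and 1 with the compared libraries only and without 3 h replicate 2, and the higher ones 0 with the compared libraries only, with library totals alone, without a filter, without 0 h replicate 1, without 0 h replicate 2, without 3 h replicate 2 and without 3 h replicate 3. PIF4, which promotes stem elongation in warmth and shade, had 31.6, 19.1 and 14.8 CPM at 3 h and 84.3, 49.6 and 40.2 CPM at 0 h and was one of the steepest declines (log2 fold change -1.41, SE 0.34, edgeR adjusted p = 0.00674). PIF4 heads a ranking that admitted only genes without overlap, so its lack of overlap was set by the choice. Over all tested genes the groups did not overlap for 38.1%. For PIF4, the call was lost without 0 h replicate 1 (adjusted p = 0.0515).

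Growth genes were lower in part. Expansins and xyloglucan enzymes loosen and remodel the wall of growing cells, and 23 of 54 tested members (of 68) were called lower and 9 higher, with a median of -0.50. Over all genes 11.1% were called lower. EXPB1 had 0.588, 0.910 and 0.313 CPM at 3 h and 3.89, 6.72 and 5.30 CPM at 0 h (log2 fold change -3.14, SE 0.45, edgeR adjusted p = 1.11e-04). EXPA6 had 24.8, 20.6 and 25.8 CPM at 3 h and 62.1, 51.3 and 48.4 CPM at 0 h, with no overlap (log2 fold change -1.18, SE 0.16), and XTH17 and XTH13 fell by 1.25 and 2.83. XTH13 had 0.428, 0.114 and 0.156 CPM at 3 h and 0.915, 1.24 and 2.96 CPM at 0 h, and for XTH13 the log2 fold change was -2.18 without 0 h replicate 3 and -3.59 without 3 h replicate 1. Some members went up. XTH2 rose by 2.56 (SE 0.60), and the log2 fold change was 4.32 without 0 h replicate 3. EXPA17 had 1.71, 1.54 and 2.50 CPM at 3 h and 0, 0.0494 and 0.311 CPM at 0 h, a low level in all libraries (log2 fold change 3.90, SE 0.69), and the log2 fold change was 5.87 without 0 h replicate 3. The root hair expansin EXPA7 rose by 0.92, and the call was lost with the compared libraries only, without 0 h replicate 1 and without 3 h replicate 2 (adjusted p 0.0704 to 0.0779). The higher members numbered 4 without 3 h replicate 2 and 5 with the compared libraries only and without 0 h replicate 1. Calls of 20 of the 32 called members held in every alternative tried.

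Some genes of growth hormones other than auxin were lower. Of 26 tested cytokinin, gibberellin and brassinosteroid genes 11 were called lower and 2 higher (50% called, against 26.6% of all genes), with a median of -0.38. The genes called higher were GA2OX6, which inactivates gibberellin, and CKX4, which breaks down cytokinin. GA2OX6 had 43.7, 57.1 and 47.5 CPM at 3 h and 7.67, 10.8 and 18 CPM at 0 h (log2 fold change 2.02, SE 0.35), and CKX4 rose by 1.34 (SE 0.27). DWF4, the rate-limiting enzyme of brassinosteroid synthesis, had 25.5, 18.5 and 18.7 CPM at 3 h and 41.0, 33.3 and 41.9 CPM at 0 h (log2 fold change -0.89, SE 0.14). The cytokinin response regulators ARR6 and RR5 fell by 0.86 and 0.67, and GASA1, a gibberellin-regulated peptide gene, by 1.14 (SE 0.24). The lower members numbered 4 without 0 h replicate 1 and without 3 h replicate 3, 5 without 3 h replicate 2 and 6 with the compared libraries only and without 0 h replicate 2. Of 28 tested aquaporins, channels for water, 11 were called lower and 1 higher (42.9% called). PIP1;4 had 74.9, 64.7 and 62.2 CPM at 3 h and 118, 119 and 102 CPM at 0 h (log2 fold change -0.75, SE 0.12). PIP2E, PIP3 and the vacuolar DELTA-TIP fell by 0.79, 0.72 and 0.75. NIP3;1 was the member called higher, at 0.80, and the call was lost with the compared libraries only, with library totals alone, without 0 h replicate 1, without 3 h replicate 2 and without 3 h replicate 3 (adjusted p 0.0590 to 0.174). The lower aquaporins numbered 5 with the compared libraries only, 6 without 3 h replicate 3 and 7 without 0 h replicate 2 and without 3 h replicate 2.

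Several lists had small median changes at 3 h. The share called was 14.3% for cell cycle genes, 22.7% for starvation, 18.5% for nutrition and 37.5% for reference genes, against 26.6% of all genes. Of 21 cell cycle genes 3 were called lower and 0 higher, and CYCD3;1, a cyclin that responds to cytokinin, fell by 0.56 (SE 0.15). The lower cell cycle members numbered 1 with the compared libraries only, without 0 h replicate 1 and without 3 h replicate 2. Of 22 genes of darkness and carbon starvation 3 were called higher and 2 lower, with medians of -0.79 at 1 h and 0.026 at 3 h against the same 0 h libraries. The lower members numbered 0 with the compared libraries only and without 3 h replicate 3, 1 without 0 h replicate 3 and without 3 h replicate 2, 4 by DESeq2 and with library totals alone and 6 without 3 h replicate 1. DIN11, an oxygenase-like member, had 11.3, 31.6 and 23.8 CPM at 3 h and 0.629, 0.494 and 0.727 CPM at 0 h (log2 fold change 5.16, SE 0.47), and GPT2, which carries sugar phosphate into plastids, rose by 3.41 (SE 0.68). For GPT2, the log2 fold change was 2.79 without 0 h replicate 2 and 5.39 without 0 h replicate 3. Of 27 nutrition genes 5 were called higher and 0 lower, among them GSR 1, a cytosolic glutamine synthetase, at 2.24 (SE 0.29) and the sulfate genes APR1 and SULTR1;2 at 1.01 and 0.92 (SE 0.17 and 0.18). The lower nutrition members numbered 1 with a replicate block, without 0 h replicate 1 and without 3 h replicate 2 and 2 without 3 h replicate 1. Of 8 genes often used as references, 2 were called higher and 1 lower, with log2 fold changes between -0.34 and 0.30. The called genes were UBQ10 (log2 fold change 0.30), TUB4 (-0.34) and AT4G34270 (0.23). For UBQ10, the call was lost with the compared libraries only, without 0 h replicate 1, without 0 h replicate 2, without 0 h replicate 3, without 3 h replicate 1, without 3 h replicate 2 and without 3 h replicate 3 (adjusted p 0.0631 to 0.128). For TUB4, the call was lost with the compared libraries only, without a filter, without 0 h replicate 1, without 0 h replicate 2, without 3 h replicate 2 and without 3 h replicate 3 (adjusted p 0.0518 to 0.211). For AT4G34270, the call was lost with the compared libraries only, with library totals alone, without a filter, without 0 h replicate 1, without 0 h replicate 2, without 0 h replicate 3, without 3 h replicate 2 and without 3 h replicate 3 (adjusted p 0.0505 to 0.141). ACT2 was at 1069.7 ± 135 CPM at 3 h and 1179.8 ± 17.7 CPM at 0 h (SD, n = 3 each).

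Trihelix factors, the family the series is about, bind DNA through a helix-rich domain. Of 19 trihelix family genes 2 were called higher and 1 lower (15.8% called, against 26.6% of all genes). AT2G33550, a locus without a symbol in the reference, had 12.1, 12.7 and 13.7 CPM at 3 h and 12.9, 11.2 and 11.8 CPM at 0 h, with an edgeR adjusted p of 0.565. AT3G11100, also without a symbol there, had 65.8, 66.0 and 60.4 CPM at 3 h and 69.9, 70.3 and 70.4 CPM at 0 h, with an adjusted p of 0.243. Neither was called. The trihelix loci called higher were AT2G38250 and AT5G01380, at log2 fold changes of 1.19 and 0.90 (SE 0.26 and 0.22), and the growth repressor GTL1 fell by 0.44 (SE 0.10). For AT5G01380, the call was lost with the compared libraries only (adjusted p = 0.0507).

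Genes with a symbol, a mean level of 1 CPM or more and groups that did not overlap were ranked by fold change. The 15 largest rises included 4 genes with 3 counts or fewer over the 0 h libraries. PP2-B13, an F-box gene of the phloem protein 2 type, had 145 counts over the 3 h libraries and 0 over the 0 h libraries, which makes it at least 49.7-fold higher when the 0 h group is set to its floor of 3 counts in all. Its near copy PP2-B14 had 478 counts at 3 h and 2 at 0 h, a ratio of 246 (95% exact interval 67.6 to 2034). GLR2.9, a glutamate receptor-like channel, had 261 counts at 3 h and 2 at 0 h, a ratio of 134 (95% exact interval 36.8 to 1113), and CRK39 had 151 counts at 3 h and 3 at 0 h, a ratio of 51.7 (95% exact interval 17.4 to 254). These intervals cover counting error only. The other 11 were CYP71A12, PROPEP3, GSTU12, CRK20, BIP3, HSP17.4, IGMT2, WRKY30 and GSTF6, given above, the lipase GLIP4 and the peroxidase PER4. PER4, which uses hydrogen peroxide in the cell wall, had 136, 130.0 and 218 CPM at 3 h and 1.72, 3.61 and 4.1 CPM at 0 h (log2 fold change 5.67, SE 0.49). GLIP4 had 7.70, 12.2 and 13.0 CPM at 3 h and 0.114, 0.198 and 0.156 CPM at 0 h (log2 fold change 6.06, SE 0.45).

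The 15 largest declines under the same rule were smaller, at log2 fold changes from -3.88 to -1.3. CER4, which makes the alcohols of the wax layer, had 0.160, 0.0569 and 0.156 CPM at 3 h and 1.03, 2.27 and 2.49 CPM at 0 h (log2 fold change -3.88, SE 0.59, edgeR adjusted p = 1.84e-04). The copper oxidase-like genes sks15 and sks16, the arabinogalactan protein genes AGP22 and AGP41, and the endoglucanase GH9B8 fell by 2.45, 1.90, 1.89, 1.39 and 1.3. TUB1, a beta-tubulin, had 8.34, 9.73 and 5.95 CPM at 3 h and 17.8, 27.3 and 22.7 CPM at 0 h (log2 fold change -1.5, SE 0.22). EXPB1 and PIF4 are given above. The xyloglucan enzyme gene XTH21, the cytoskeleton-related TRM10, the cis-prenyltransferase CPT, the pyruvate decarboxylase PDC3, the receptor-like protein RLP29 and the transcription factor MYB74 had log2 fold changes of -1.71, -1.87, -1.65, -1.42, -1.41 and -1.34. For TRM10, the call was lost without 0 h replicate 2 (adjusted p = 0.0806) and without 3 h replicate 3 (adjusted p = 0.0712). For MYB74, the call was lost without 0 h replicate 3 (adjusted p = 0.0608) and without 3 h replicate 3 (adjusted p = 0.0681). For AGP41, the call was lost with the compared libraries only (adjusted p = 0.0581).

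The change from 0 h to 3 h was then set beside that in the aitf1-1asr3-1 double mutant, which shares no libraries with the wild type. In the test of the difference between the 2 changes edgeR called 0 of 21028 genes, with 853 (4.06%) at an unadjusted p under 0.05, and DESeq2 also called 0 genes, with 878. How large a difference this test could detect was not estimated, so 0 calls do not show equal changes in the genotypes. In the mutant 4098 genes (19.5%) were called, 2783 higher (13.2%) and 1315 lower (6.25%). Of the wild type's calls 3094 were called in the same direction in the mutant, which is 55.4% of the wild type's calls and 75.5% of the mutant's. For the higher calls the shares were 69.5% and 80.9%, and for the lower calls 35.9% and 64.0%. Across all tested genes, which are not independent replicates, Pearson's r between the log2 fold changes was 0.864. Genes called higher in the wild type had median log2 fold changes of 0.77 in the wild type and 0.61 in the mutant, and those called lower -0.44 and -0.29. The genes were chosen on the wild type's values, which favours larger medians there.

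By list, the median log2 fold change was 1.85 in the wild type and 2.05 in the mutant for early pattern-triggered markers, 2.04 and 1.91 for indole defence genes, 1.45 and 1.45 for ER chaperones and 0.92 and 0.66 for the WRKY family. FRK1 rose by 5.29 in the wild type and 6.18 in the mutant, CYP71A12 by 8.49 and 8.76, BIP3 by 6.37 and 7.94 and WRKY30 by 6.05 and 6.17. The antenna list had medians of -0.57 and -0.26, with 14 and 2 members called lower in the wild type and in the mutant, and the photosystem list had medians of -0.38 and -0.19, with 11 and 0 called lower. No member of these lists was called in the test of the difference. For FRK1 in the wild type, the log2 fold change was 6.97 without 0 h replicate 3, and for BIP3 the log2 fold change was 7.86 without 0 h replicate 3.

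**Figure D5:**
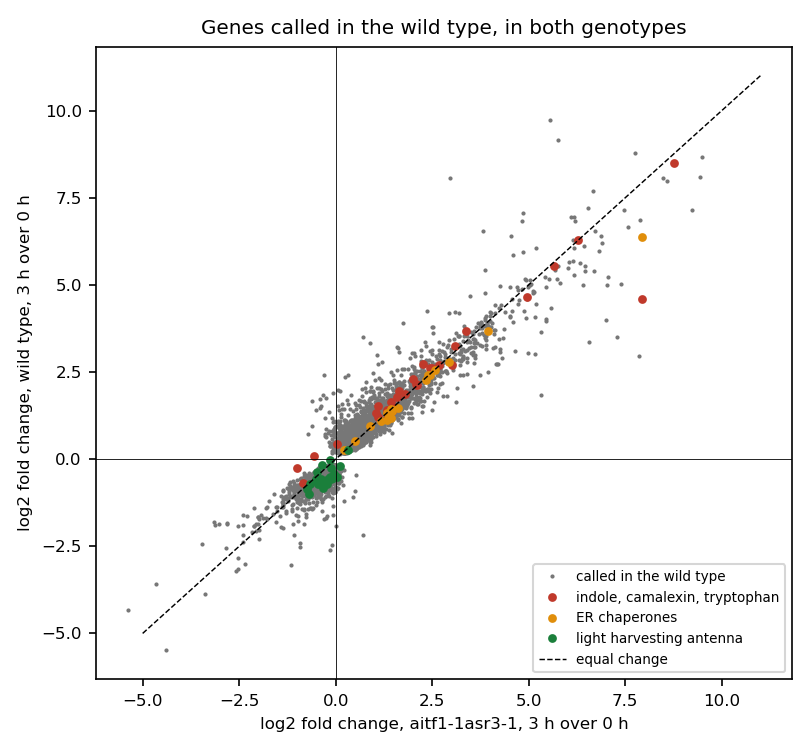
Log2 fold change at 3 h over 0 h in wild-type seedlings (vertical axis) against that in aitf1-1asr3-1 seedlings (horizontal axis) for the 5584 genes called in the wild type, with tested members of 3 lists in colour and equal change as a dashed line. Most points share their sign in both genotypes (5464 of 5584), the medians are 0.77 in the wild type and 0.61 in the mutant for genes called higher and -0.44 and -0.29 for genes called lower, and no gene was called in the test of the difference.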

How the data were processed

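Seedling RNA was sequenced in 18 libraries, 3 for each of 6 groups, and 3 at 3 h and 3 at 0 h are compared here. The authors deposited raw counts per gene, and per the submitters' processing notes reads were aligned with HISAT2 2.1.0 to TAIR10 and counted with featureCounts of Subread 1.6.5. How strand and reads matching several genes were treated is not given in the sources used, so close copies and overlapping or antisense genes are uncertain. Of 33318 genes 21028 passed edgeR's filterByExpr. edgeR 4.0.16 (R 4.3.3) fitted a quasi-likelihood model with a term per group to all 18 libraries (12 residual degrees of freedom) after TMM normalization, and genes with a Benjamini-Hochberg adjusted p under 0.05 were called. The SE printed with a log2 fold change is its absolute value divided by the square root of edgeR's F statistic. It was thus back-calculated from the test and is approximate. DESeq2 1.42.0 was an alternative, besides other scalings, filters, left-out libraries and a replicate block. On simulated data the test recovered 84% of 100 genes changed 2-fold and 98% of 100 changed 4-fold, with 10 false calls among 21028 genes. The simulated counts varied independently by gene and held no shift shared by a whole library. The simulation therefore cannot say how reliable the calls are in these data. The members and lists were chosen with earlier results of these data known, and 11 list entries were corrected against the annotation. Named genes are the 15 with a symbol at each end of the ranking, called members of the lists led by the 5 steepest, and textbook members whatever their result. Names and upstream sequences come from RefSeq (TAIR10.1). Motifs were searched separately on both strands of the 250 bases before each gene. The leaf libraries were not used here.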

Additional observations from a re-analysis of the deposited data

How the results depend on the processing

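The number of genes called (5584 in all, 3240 higher and 2344 lower) was 3293 in all and 972 lower with the compared libraries only. Leaving out 1 library gave 3216 to 6312 genes in all, 2212 to 3500 higher, 1004 to 2812 lower and 1160 to 1659 changed at least 2-fold. The fewest calls came without 3 h replicate 2 (3216, of which 1004 lower) and without 0 h replicate 1 (3365, of which 1024 lower), and 1460 lower calls came without 3 h replicate 3. The causes were not tested. With other scalings, other filters and DESeq2 the counts stayed within 1.5 times those reported, and DESeq2 called 6211 genes, 5538 of them also called by edgeR and all of those in the same direction. The test of the difference between wild type and mutant called 0 genes under each setting, with 582 to 1230 at an unadjusted p under 0.05. Of 191 called genes named in the text, 165 kept their call in each of the 13 alternatives that gave them a value and 26 lost it in at least 1, and 0 of them changed direction. Among genes that were not called, FLS2 (log2 fold change -0.0013) ranged from -0.047 to 0.034 when 1 library was left out, above 0 without 0 h replicate 1, 0 h replicate 3 or 3 h replicate 1, and RBCS2B (0.13) from -0.011 to 0.29, below 0 without 3 h replicate 3. The main fit did not pair libraries by replicate number. Same-numbered 3 h and 0 h libraries deviated from their group means with correlations of 0.23, 0.26 and 0.0067, and differently numbered ones with -0.30 to 0.10. Each of the first 2 pairs correlated best with its own number. Whether replicate numbers mark a shared effect was not tested. With the replicate number as a block 6054 genes were called, 3514 higher and 2540 lower, 1428 of them at least 2-fold. Depth limited genes with a few counts over a group, such as PR1 and PDF1.2, for which no difference was detectable.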
